A study of Mus with 4 samples.

Results

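The interferon regulatory factors (IRFs) were read from a table of 21230 genes measured by RNA sequencing in mouse cochlea, by taking the rows whose gene symbol was Irf1, Irf2, Irf3, Irf4, Irf5, Irf7, Irf8 or Irf9. All 8 genes were in the table. The study asked whether RESTART v3, a pseudouridine-based RNA editing system that lets ribosomes read through an early stop codon, alters RNA in the treated ear.

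The treated group, RESTARTv3, held 2 libraries from cochleae of Otof c.1315 C>T mice that had been given RESTART v3 in the viral vector AAVie. The untreated group held 2 libraries from Otof c.1315 C>T mice without RESTART v3. All 4 libraries therefore carry the stop codon in Otof, which encodes the calcium sensor otoferlin of inner hair cell synapses. By the study's methods the vector entered the inner ear through the posterior semicircular canal of juvenile mice, and the labels give neither an age nor the time between injection and collection. No library is labelled as an injected control, so surgery, vector and editing system cannot be told apart. The labels do not name the animals, and p-values measure the spread between these libraries only. Both untreated columns bear 1 and the same header, so they are called libraries A and B, letters without order.

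Interferon regulatory factors are transcription factors that bind interferon response elements in DNA. Infection or foreign nucleic acid activates latent IRF3 and IRF5 proteins through kinases, and these switch on the interferon genes. Secreted interferon then acts through its receptors on the complex ISGF3, of which STAT2 and IRF9 are subunits, and this complex induces Irf7 and many antiviral genes. IRF7 protein in turn amplifies interferon production, while IRF1 and IRF8 are induced mainly by interferon gamma and IRF2 can counter IRF1. IRF4 and IRF8 also guide the formation of lymphoid and myeloid cells. By these textbook roles, Irf1, Irf7, Irf8 and Irf9 are called inducible here, Irf2, Irf3 and Irf5 constitutive, and Irf4 lymphoid.

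The libraries rested on totals of 71144247 and 61040077 reads for RESTARTv3 replicates 1 and 2, against 39650172 and 56739609 for the untreated libraries. Listed genes held 46.4% and 23.1% of these totals in RESTARTv3 replicates 1 and 2, against 46.4% and 48.4% in untreated libraries A and B. RPKM, reads divided by the span of the gene and by the total of the library, was therefore low for most genes in RESTARTv3 replicate 2. It was divided here by the median of its ratios over all genes in each library, and the result is called scaled RPKM. The replicates were not alike in spread. Of 13951 tested genes, 7.48% differed over 2-fold between the RESTARTv3 replicates, against 45.4% between the untreated libraries. The log2 ratio of untreated library A to library B had a median of 0.60 in genes that span up to 7389 bases and -0.29 in genes that span over 26046 bases. Of 10 tested cochlear markers outside hair cells, 4 were lower in both RESTARTv3 libraries and 0 higher in both, with a median log2 change of -0.26. Coch, the gene of cochlin, overlapped at 139 and 118 scaled RPKM in RESTARTv3 and 87.4 and 151 in untreated libraries, while Otog, the gene of otogelin, averaged 0.434 ± 0.331 in RESTARTv3 and 4.01 ± 4.19 in untreated libraries (SD, n = 2 each). Ngp, a granule gene of neutrophil precursors, was at 266 and 143 scaled RPKM in RESTARTv3 and 153 and 178 in untreated libraries. Of 8 tested hair cell markers, 6 were lower in both RESTARTv3 libraries and 0 higher in both. Over all tested genes, 23.0% were lower and 14.2% higher in this way. Strc and Cabp2 were far higher in untreated library A than in B, at 1.23 and 0.249 and at 2.84 and 0.730 scaled RPKM. Slc17a8 was highest in library B, at 0.137 in A and 0.158 in B.

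Among the 8 genes, 5 had both RESTARTv3 values above both untreated values, and 0 had both below. These were the 4 inducible genes Irf1, Irf7, Irf8 and Irf9 and, by a narrow margin, Irf2. Of all tested genes, 14.2% were higher in this way and 23.0% were lower. Each of the 8 genes passed the filter on low values. The median log2 change of the family was 0.54, against -0.04 over all tested genes, and 7 of 8 estimates were positive. None of the 8 genes passed the test of single genes (limma, Benjamini-Hochberg adjusted), and 0 of 8 had an unadjusted p under 0.05 by limma or by limma voom. The same test called 0 of all 13951 genes (0%), with 265 at an unadjusted p under 0.05, and voom called 0 of 18424 genes (0%), with 400 at that level. With untreated library B left out, limma called many genes over the whole table. The spread in that fit came from the RESTARTv3 pair alone, so its calls are not read as results about single members.

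**Figure D1:**
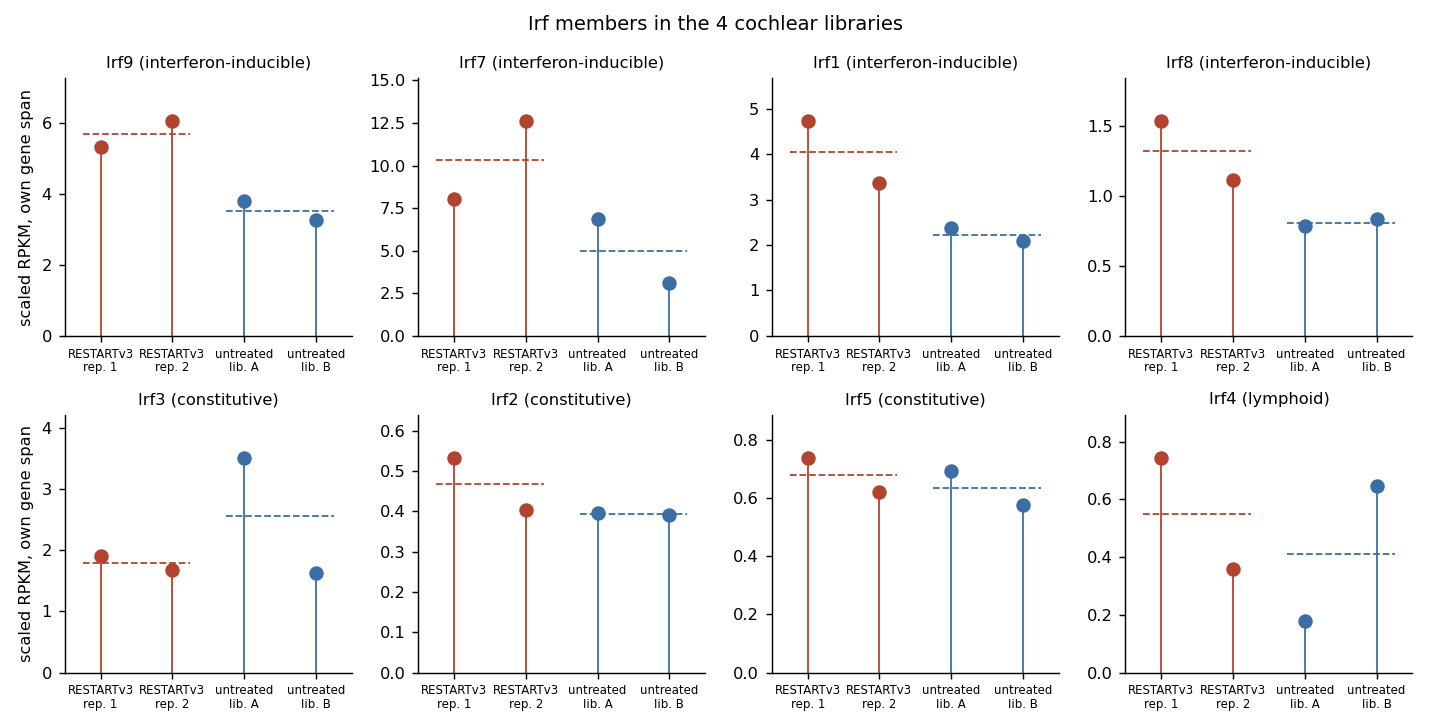
Scaled RPKM (vertical axes, each starting at 0, per base of each gene's own span) of the 8 Irf genes in the 2 RESTARTv3 libraries (red) and the 2 untreated libraries (blue); points are libraries and dashed lines group means. Irf1, Irf7, Irf8 and Irf9 lie higher in both RESTARTv3 libraries, Irf3, Irf4 and Irf5 overlap between groups, and the lower RESTARTv3 point of Irf2 is only just above the untreated ones.

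Irf7, the amplifier of interferon production, had the largest estimate of the 8 genes. It was at 8.01 and 12.6 scaled RPKM in RESTARTv3 replicates 1 and 2, against 6.87 and 3.10 in untreated libraries A and B. These values rest on 2444 and 1610 reads in RESTARTv3 and 838 and 769 reads in untreated libraries. The groups did not overlap, but RESTARTv3 replicate 1 was nearer to untreated library A than to RESTARTv3 replicate 2. The means were 10.3 ± 3.21 scaled RPKM in RESTARTv3 and 4.99 ± 2.66 in untreated libraries (SD, n = 2 each). On the log2(scaled RPKM + 0.1) scale Irf7 was higher by 1.10 with a 95% interval of -0.36 to 2.56, and 98.9% of tested genes had a lower estimate (limma, Benjamini-Hochberg adjusted p = 0.752). Its size depended on the untreated library used, with a log2 change of 1.66 without library A and 0.54 without library B. Irf7 was the single member whose groups did not overlap in the RPKM as deposited, at 10.4 and 7.95 in RESTARTv3 and 6.37 and 4.09 in untreated libraries. On that scale 1.03% of tested genes were higher in both RESTARTv3 libraries.

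Irf9, the DNA-binding subunit of ISGF3, differed least of the inducible genes between the RESTARTv3 replicates. It was at 5.32 and 6.04 scaled RPKM in RESTARTv3 replicates 1 and 2, against 3.80 and 3.26 in untreated libraries A and B, from 2959 and 1413 against 845 and 1471 reads. The groups did not overlap, and the gap between them exceeded the difference within either. Means were 5.68 ± 0.511 scaled RPKM in RESTARTv3 and 3.53 ± 0.384 in untreated libraries (SD, n = 2 each). The log2 change was 0.67 with a 95% interval of -0.41 to 1.76 (limma, Benjamini-Hochberg adjusted p = 0.752). Leaving out single libraries moved it between 0.57 and 0.78.

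Irf1, an early target of interferon gamma that drives antigen presentation genes, was at 4.72 and 3.36 scaled RPKM in RESTARTv3 replicates 1 and 2. In untreated libraries A and B it was at 2.37 and 2.08. The lower RESTARTv3 library was thus above the higher untreated library. Reads were 3628 and 1085 in RESTARTv3 and 729 and 1297 in untreated libraries. The log2 change was 0.82 with a 95% interval of -0.25 to 1.88 (limma, Benjamini-Hochberg adjusted p = 0.752).

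Irf8, which is induced by interferon gamma and is needed for macrophage and dendritic cell formation, followed the same order of libraries within RESTARTv3 as Irf1. Its scaled RPKM was 1.53 and 1.11 in RESTARTv3 replicates 1 and 2, against 0.781 and 0.831 in untreated libraries A and B. The untreated libraries lay close together, at a mean of 0.806 ± 0.0357, while RESTARTv3 averaged 1.32 ± 0.296 scaled RPKM (SD, n = 2 each). Irf8 was higher by 0.63 on the log2 scale with a 95% interval of -0.28 to 1.55 (limma, Benjamini-Hochberg adjusted p = 0.752).

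Markers of immune cells, of which only some types express Irf8, were set beside it. B cell markers are given with Irf4 below. Summed over 13 listed macrophage markers, scaled RPKM was 37.9 and 37.4 in RESTARTv3 replicates 1 and 2, against 61.8 and 26.0 in untreated libraries A and B, so the groups overlapped. Of these 13 markers, 6 were higher in both RESTARTv3 libraries and 0 lower in both, against 14.2% and 23.0% of all tested genes. The 8 dendritic cell markers, of which 4 were tested and 2 of these were higher in both RESTARTv3 libraries, summed to 1.51 and 1.27 scaled RPKM in RESTARTv3 and 0.744 and 1.04 in untreated libraries. The 11 listed T and natural killer cell markers summed to 5.50 and 5.01 in RESTARTv3 and 2.91 and 3.24 in untreated libraries, with 6 of the 7 tested higher in both RESTARTv3 libraries. Nkg7 made up most of this sum, at 4.05 and 3.61 in RESTARTv3 and 2.30 and 2.46 in untreated libraries. Others rested on few reads, such as Gzmb with 88 and 33 in RESTARTv3 and 8 and 16 in untreated libraries. For neutrophil genes the sums over 10 listed markers were 465 and 267 in RESTARTv3 and 265 and 304 in untreated libraries, with 4 of 10 higher in both. None of the listed markers was at 0, but the table holds no gene at 0. In bulk tissue, more cells of a type and more RNA per cell cannot be told apart, and the part of these cells in the Irf8 values was not tested.

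Irf3, which encodes a constitutive factor activated by the kinase TBK1 once sensors have bound viral nucleic acid, was the 1 member with a negative estimate. It was at 1.90 and 1.68 scaled RPKM in RESTARTv3 replicates 1 and 2, against 3.51 and 1.63 in untreated libraries A and B. The RESTARTv3 values lay between the untreated ones, and library A alone was high. Reads were 908 and 337 in RESTARTv3 and 672 and 635 in untreated libraries. The log2 change was -0.41 with a 95% interval of -1.62 to 0.80 (limma, Benjamini-Hochberg adjusted p = 0.764). It turned to 0.12 without untreated library A and to -0.94 without library B. Both fits assume that the lone untreated library varies like the RESTARTv3 pair, so their p-values are not read here. Irf3, Irf7 and Irf9 span 5201, 3317 and 6046 bases, within the group of short genes above, and had log2 ratios of untreated library A to B of 1.10, 1.15 and 0.22; the part of gene span in these values was not tested.

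Irf5, a constitutive factor of myeloid cells that acts downstream of Toll-like receptors, was nearly even across the 4 libraries. It was at 0.737 and 0.619 scaled RPKM in RESTARTv3 replicates 1 and 2 and at 0.691 and 0.576 in untreated libraries A and B. The groups overlapped, and the log2 change of 0.09 had a 95% interval of -0.75 to 0.92 (limma, Benjamini-Hochberg adjusted p = 0.922). The interval leaves room for a change of the size estimated for Irf1, Irf8 or Irf9. Irf5 shares 1043 bases of span with Tnpo3, a nuclear import receptor gene, which had 2124 and 815 reads in RESTARTv3 and 464 and 1653 reads in untreated libraries, so some reads of the pair may be assigned to either gene.

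Irf2, which can repress targets of IRF1, was at 21.2 and 16.0 scaled RPKM in RESTARTv3 replicates 1 and 2, against 15.8 and 15.6 in untreated libraries A and B. Its groups did not overlap, but RESTARTv3 replicate 2 was above untreated library A by less than the RESTARTv3 replicates differed. The log2 change was 0.23 with a 95% interval of -1.13 to 1.59, and adjusted p was 0.868 (limma, Benjamini-Hochberg). It was -0.05 on the scale as deposited. Reads were 5269 and 1676 in RESTARTv3 and 1570 and 3149 in untreated libraries.

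The RPKM of Irf2 could not be compared with that of other genes as deposited. Its values came out as whole reads at a length of 2706 bases, which is the annotated span of Irf2bp1, the gene of an IRF2 corepressor whose symbol begins with the same letters. The span of Irf2 itself is 107714 bases. Per base of its own span, Irf2 averaged 0.467 ± 0.0916 scaled RPKM in RESTARTv3 and 0.394 ± 0.00351 in untreated libraries (SD, n = 2 each). That placed Irf2 last of the 8 genes, where the length of 2706 bases would place it first. The length cancels in a ratio between libraries. It enters the fit, though, through the 0.1 added and through a variance modelled on the level of each gene. The standard error of the Irf2 change was 0.56 in that fit, 0.32 without the modelled variance and 0.38 by limma voom. The interval of Irf2 above therefore rests in part on the length of 2706 bases. Irf2 also overlaps the noncoding genes Gm31172 and Gm39170, over 4262 and 3697 bases. In total, 553 listed genes came out whole at the span of another gene whose symbol starts with theirs.

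Irf4, the factor of lymphocytes and plasma cells, varied more within the groups than between them. It was at 0.743 and 0.358 scaled RPKM in RESTARTv3 replicates 1 and 2, against 0.177 and 0.645 in untreated libraries A and B. Reads were 1215 and 246 in RESTARTv3 and 116 and 857 in untreated libraries. The log2 change of 0.45 had a 95% interval of -0.95 to 1.85 (limma, Benjamini-Hochberg adjusted p = 0.770), and it was -0.26 without untreated library A and 1.16 without library B. The B cell receptor gene Cd79b was at 4.05 and 1.77 scaled RPKM in RESTARTv3 and 2.51 and 3.35 in untreated libraries. Irf4 and Cd79b were thus both highest in RESTARTv3 replicate 1. They were lowest in different libraries, Irf4 in untreated library A and Cd79b in RESTARTv3 replicate 2. Among the listed B cell and plasma cell markers, Igll1 was highest in RESTARTv3 replicate 2 and Sdc1 in untreated library A. The others were highest in RESTARTv3 replicate 1. Summed over 9 listed B cell and plasma cell markers, scaled RPKM was 9.93 and 5.36 in RESTARTv3 and 6.39 and 7.63 in untreated libraries. Of the 9 markers, 2 were higher in both RESTARTv3 libraries and 0 lower in both, against 14.2% and 23.0% of all tested genes. The share of B cells in the Irf4 values was not tested.

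**Figure D2:**
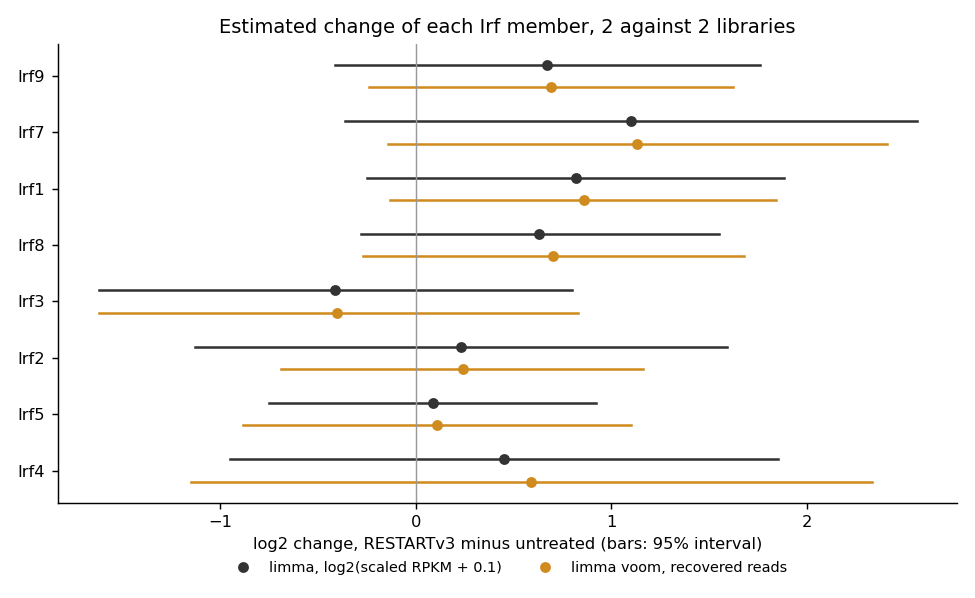
Log2 change (RESTARTv3 minus untreated, horizontal axis) of each Irf gene with its 95% interval, from limma on log2(scaled RPKM + 0.1) in black and from limma voom on recovered reads in orange, with 2 libraries per group. Estimates of both fits lie close together, from -0.41 for Irf3 to 1.10 for Irf7 in the first, and every interval spans 0.

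Ratios of reads between 2 genes of a library need neither the library total nor the scaling. For each inducible gene the reads were divided by those of Irf2, Irf3 and Irf5, and 11 of the 12 ratios were higher in RESTARTv3 with no overlap of the groups. Irf7 had 2.69 and 4.78 reads per read of Irf3 in RESTARTv3 replicates 1 and 2, against 1.25 and 1.21 in untreated libraries A and B. The ratio of Irf9 to Irf5 was 2.77 and 3.75 in RESTARTv3 and 2.11 and 2.17 in untreated libraries. For Irf1 to Irf5 it was 3.40 and 2.88 in RESTARTv3 and 1.82 and 1.92 in untreated libraries. The exception was Irf7 to Irf2, at 0.464 and 0.961 in RESTARTv3 and 0.534 and 0.244 in untreated libraries. The 3 ratios of Irf4 overlapped between groups. These ratios share numerators and denominators and do not count as separate observations. The inducible genes were already higher by themselves, and the share of other gene pairs that separate in this way was not counted. The smallest 2-sided p that an exact permutation test allows with 2 libraries per group is 0.333, so no ratio could pass a threshold.

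**Figure D3:**
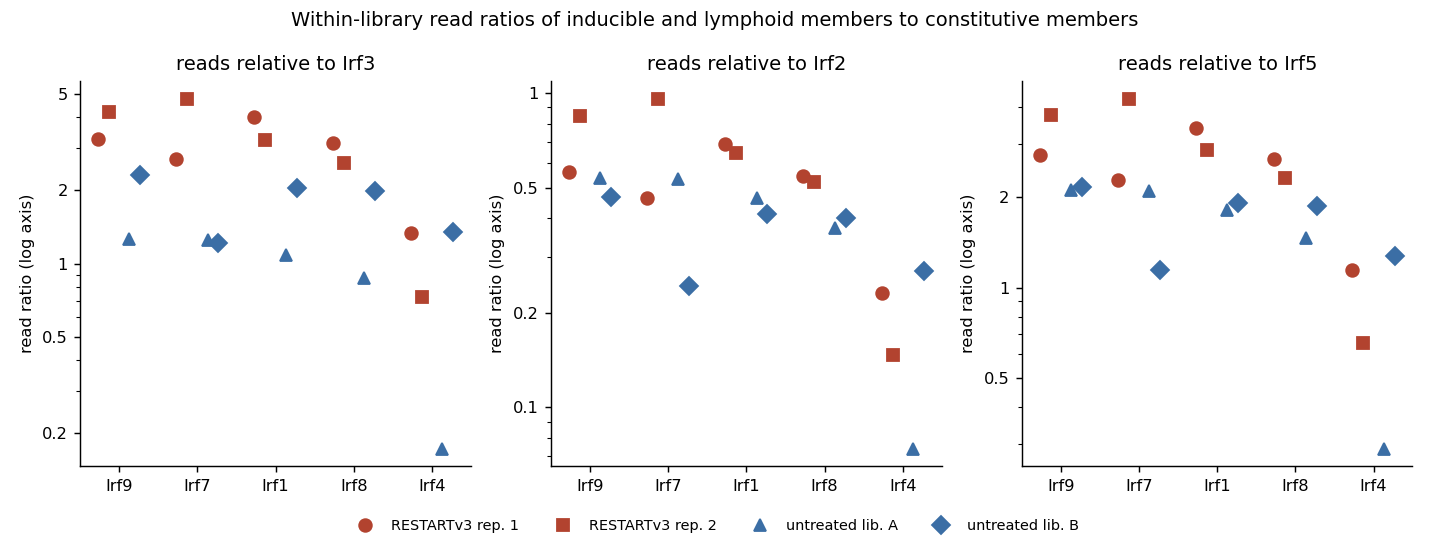
Reads of Irf9, Irf7, Irf1, Irf8 and Irf4 divided by reads of Irf3, Irf2 or Irf5 in the same library (vertical log axes, no unit), with RESTARTv3 libraries in red and untreated libraries in blue. The 4 inducible genes lie higher in both RESTARTv3 libraries in 11 of 12 ratios, while the ratios of Irf4 overlap.

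Per base of span, the order of levels was Irf7, Irf9, Irf1, Irf3, Irf8, Irf5, Irf4 and Irf2 in RESTARTv3 libraries. In untreated libraries it was Irf7, Irf9, Irf3, Irf1, Irf8, Irf5, Irf4 and Irf2. Only Irf1 and Irf3 stood in a different place. In RESTARTv3 libraries the ranges of neighbours overlapped between Irf5 and Irf4 and between Irf4 and Irf2. In untreated libraries they overlapped for all neighbours from Irf7 down to Irf1, and again from Irf5 down to Irf2. The span includes introns, and these levels are read densities over genes rather than over mature messenger RNA.

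The members also differed in how they varied over the 4 libraries, measured as the Euclidean distance between log2 profiles after the mean of each gene was removed. The closest pairs were Irf2 with Irf5, at 0.24, and Irf1 with Irf8, at 0.25. Irf4 and Irf7 were farthest apart, at 2.50, followed by Irf3 and Irf4, at 2.42. Of the other members, Irf9 was nearest to Irf7, at 0.85. Among 13275 genes with enough reads, the 5 nearest to Irf7 were Mmp12 (0.28), a macrophage elastase, Muc1 (0.28), a membrane mucin, Oas1a (0.29), an antiviral oligoadenylate synthetase, Ly6a (0.30), a surface protein induced by interferon, and Cyp4a12a (0.33), a fatty acid hydroxylase. With 4 libraries these distances are a description.

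The genes around the IRF proteins were then counted in the same way. For comparison with each list below, 14.2% of all tested genes were higher in both RESTARTv3 libraries and 23.0% lower in both. Upstream, the list of sensors, adaptors and kinases that activate IRF3, IRF5 and IRF7 had 20 of 24 genes in the table. Of these, 9 were higher in both RESTARTv3 libraries and 3 were lower in both, with a median log2 change of 0.23 and 0 calls. Zbp1, a nucleic acid sensor that is itself induced by interferon, was at 1.24 and 1.21 scaled RPKM in RESTARTv3 and 0.309 and 0.252 in untreated libraries. Cgas, the cytosolic DNA sensor, was at 0.387 and 0.309 in RESTARTv3 and 0.0834 and 0.194 in untreated libraries. Myd88, the adaptor between Toll-like receptors and IRF5 or IRF7, overlapped at 3.34 and 3.10 in RESTARTv3 and 3.33 and 2.76 in untreated libraries. None of the 20 interferon genes on the list was in the table, and they are not analysed here.

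Of 12 genes for interferon receptors, their kinases and STAT proteins, 6 were higher in both RESTARTv3 libraries and 0 lower in both, with a median log2 change of 0.12 and 0 calls. Stat2, a partner of IRF9 in ISGF3, was at 1.45 and 1.56 scaled RPKM in RESTARTv3 replicates 1 and 2, against 0.968 and 0.639 in untreated libraries A and B. Its groups did not overlap, as for Irf9, and it was higher by 0.85 ± 0.39 (standard error) on the log2 scale (limma, Benjamini-Hochberg adjusted p = 0.752). Of the receptor genes, Ifngr1 had the highest log2 change, at 0.37, and Ifnar2 the lowest, at -0.79, with untreated library A alone high. Ifnar1 was at 0.27, Ifngr2 and Il10rb at 0.08 and Ifnlr1 at -0.01.

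Of 8 genes for negative feedback on the pathway, 3 were higher in both RESTARTv3 libraries and 0 lower in both, with a median log2 change of 0.47 and 0 calls. Usp18 and Isg15, which are among the higher ones, are counted again in the list of target genes below. Usp18, which detaches ISG15 from proteins and blocks the interferon receptor, was at 0.368 and 0.484 scaled RPKM in RESTARTv3 and 0.174 and 0.178 in untreated libraries. Ptpn1, a phosphatase acting on the receptor's kinases, overlapped at 2.37 and 2.03 in RESTARTv3 and 3.40 and 1.91 in untreated libraries.

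Downstream, 29 of 30 known target genes of ISGF3, IRF1, IRF3 or IRF7 were in the table. Of these, 22 were higher in both RESTARTv3 libraries and 0 lower in both, against 14.2% and 23.0% of all tested genes. The median log2 change of the 29 genes was 1.24, more than that of any single Irf gene, and 0 of 29 passed the test. Oas2, an antiviral oligoadenylate synthetase, was at 0.524 and 0.599 scaled RPKM in RESTARTv3 and 0.106 and 0.144 in untreated libraries. Ifit1, which binds foreign RNA, was at 0.618 and 0.897 in RESTARTv3 and 0.137 and 0.199 in untreated libraries. B2m, the light chain of class I antigen-presenting molecules, was at 62.7 and 71.0 in RESTARTv3 and 15.1 and 35.7 in untreated libraries.

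Of the 15 tested partners and corepressors of IRF proteins, 5 were lower in both RESTARTv3 libraries and 1 higher in both, with 0 calls. With 23.0% of all tested genes lower and 14.2% higher in this way, and a median log2 change of -0.11 against -0.04, this list lay near the whole table. Irf2bp1 was at 5.12 and 5.11 scaled RPKM in RESTARTv3 and 20.7 and 5.47 in untreated libraries, so its estimate of -1.05 rests on untreated library A. Irf2bp2, a second IRF2 corepressor, overlapped at 15.7 and 13.1 in RESTARTv3 and 17.1 and 14.0 in untreated libraries. The 1 higher gene was Trim21, an antibody receptor and ubiquitin ligase of IRF proteins that interferon induces, at 1.81 and 1.78 in RESTARTv3 and 0.561 and 1.15 in untreated libraries.

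**Figure D4:**
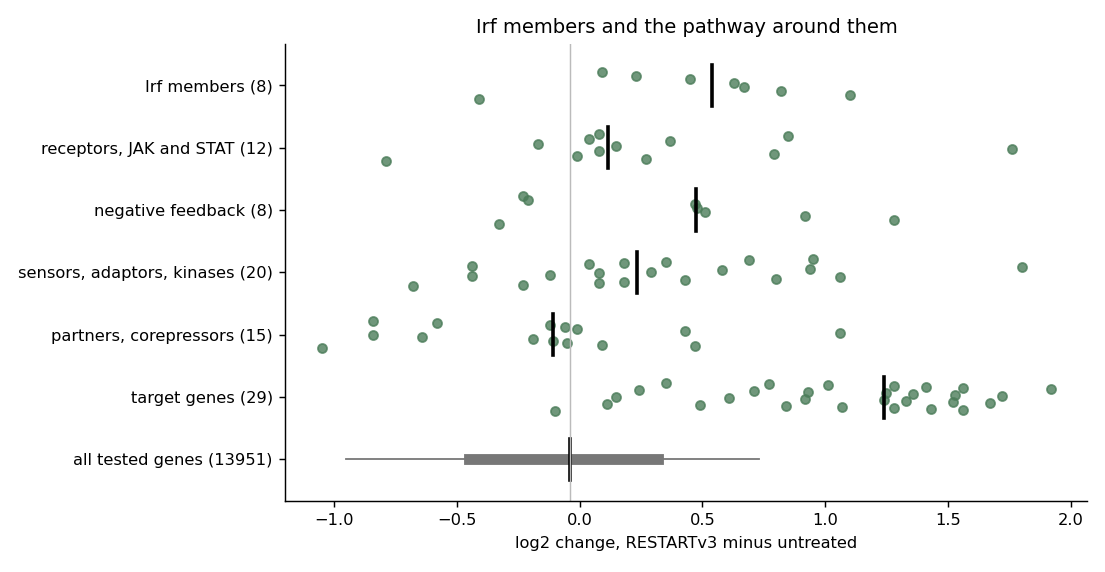
Log2 change (RESTARTv3 minus untreated, horizontal axis) of the Irf genes and of 5 lists around them; points are genes, black bars medians, and the grey box at the bottom gives the 25th to 75th (thick) and 5th to 95th (thin) percentiles of all 13951 tested genes. The medians are 0.54 for the Irf genes and 1.24 for the target genes, against -0.04 for all tested genes.

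Left-out libraries and other settings moved the members unequally. Irf1, Irf7, Irf8 and Irf9 had positive log2 changes in all 12 alternative fits. These ran, in that order, at 0.54 to 1.10, 0.54 to 1.66, 0.38 to 0.85 and 0.39 to 0.97. No member passed the test in an alternative that kept all 4 libraries, and calls of members in the other fits are not read. Irf2, Irf3, Irf4 and Irf5 each changed sign in at least 1 alternative.

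**Figure D5:**
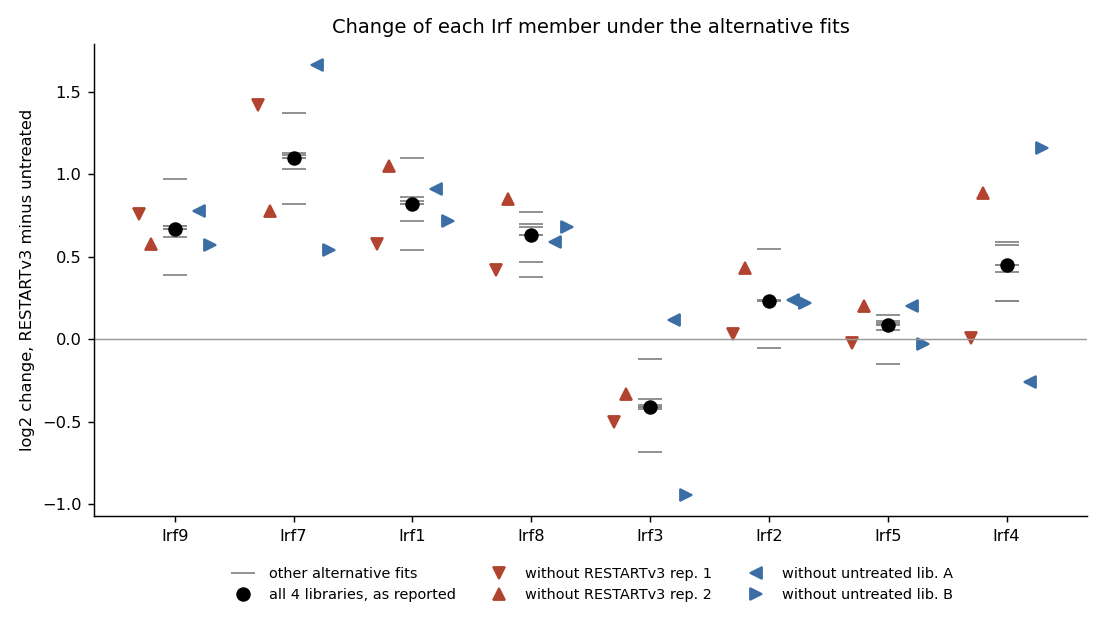
Log2 change (RESTARTv3 minus untreated, vertical axis) of each Irf gene with all 4 libraries (black), without 1 library (triangles, red for a RESTARTv3 and blue for an untreated library) and under the other alternative fits (grey dashes). The estimates of Irf9, Irf7, Irf1 and Irf8 stay above 0, while those of Irf3, Irf2, Irf5 and Irf4 cross it, with Irf4 at -0.26 and 1.16 as either untreated library is left out.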

How the data were processed

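Per the study's methods, rRNA was depleted from total cochlear RNA (the labels name polyA RNA) and a stranded kit for small inputs was used. Per the submitters' notes, reads were processed with cutadapt 4.2, UMI-tools 1.0.0, STAR 2.7.10b on GRCm39, SAMtools 1.14 and HTSeq 1.14, and the authors deposited RPKM values. By the study's methods, genes above a cutoff on the log2 ratio of their replicates were removed. The deposited values still hold log2 read ratios within groups from -3 to 3, which go beyond that cutoff. No gene is at 0. Whole reads were recovered from RPKM for all 21230 genes (within 0.001 of a whole number), at their own annotated span (GRCm38.p6, lengths only) for 11590; for 4129 the smallest fitting length was used, and reads may be low by a whole factor.

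RPKM was scaled by median-of-ratios. Genes with a mean of at least 0.1 scaled RPKM were tested with limma 3.58.1 (R 4.3.3; variance trend) on log2(scaled RPKM + 0.1), which understates changes of low genes, 2-sided, with Benjamini-Hochberg adjustment at 0.05. Alternatives were limma voom on recovered reads (mean of at least 10), the deposited scale, quantile normalization, other pseudocounts and filters, no variance trend, and leaving out each library. Distances between profiles used genes averaging 50 reads or more. Members and lists were chosen with earlier results of these data known. Named genes were the members and, for each list described, up to 2 with the highest mean and up to 2 with the smallest p; some genes that this rule names are not reported here.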

Additional observations from a re-analysis of the deposited data

How the results depend on the processing

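Irf1, Irf7, Irf8 and Irf9 kept their direction in all 12 alternatives. With all 4 libraries kept, none of the 8 members passed the threshold in any alternative. Calls of members in fits with a library left out are not read, because a group then holds 1 library. The number of genes called ranged from 0 to 7291 as single libraries were left out, the highest without untreated library B, and was 0 in every other alternative. Members higher in RESTARTv3 with no overlap of the groups numbered 5 to 7 of 8 as single libraries were left out. The share of all tested genes was then 22.7% to 43.1%. The count was 4 of 8 with quantile normalization, where that share was 15.1%. It was 1 of 8 on the deposited scale, where the share was 1.03% and fewer reads of RESTARTv3 replicate 2 fell in listed genes. On the deposited scale the log2 changes of Irf2 and Irf5 were -0.05 and -0.15, and the median of all tested genes was -0.25, against -0.04 with scaling. Without untreated library A, Irf3 was at 0.12 and Irf4 at -0.26; without library B, Irf3 was at -0.94, Irf4 at 1.16 and Irf5 at -0.03; without RESTARTv3 replicates 1 or 2, Irf5 was at -0.02 or 0.20. The cause was not tested. Irf4 and Irf5 could not be tested with a minimum of 1 RPKM, and Irf2 passed it only at the length of 2706 bases. No paired analysis was possible because the untreated columns share 1 header name and carry no replicate number. With 2 libraries per group, the 95% interval of each member included 0.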
